A study of Mus musculus with 6 samples.

Results

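The genes that carry a cell from G2 through mitosis were followed in mouse ADSCs carrying a hairpin against Ifit1 and in ADSCs carrying a scrambled hairpin. The 48 genes were picked by symbol from the 19877 genes of the deposited expression table, and all 48 were found. They cover 10 roles, from the cyclins and the kinase CDK1 to the proteins that cut the cell in 2. The Ifit1 knockdown group and the scrambled group each held 3 libraries, and each of 3 labelled batches held 1 library of each group. Both groups are labelled wild type in genotype, and no label names the hairpin's target position, its vector or the promoter that drives it. ADSC usually stands for adipose-derived stem cell, a name the labels do not spell out. Whether the libraries of a group came from separate cultures is not stated either, and every p-value therefore reflects spread among these libraries alone, which may be technical.

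Levels are given as FPKM, that is, fragments scaled to gene length in kb and to the library's M fragments. All genes of the deposited expression table together took between 32.2 and 40.6 M fragments per library. Ifit1 itself stood at 1.76, 1.48 and 1.51 FPKM in knockdown libraries 1, 2 and 3, against 4.90, 3.75 and 4.97 FPKM in scrambled libraries 1, 2 and 3, lower in every knockdown library as labelled. Of 10 stromal markers 9 passed the filter on low values, Nt5e being below it, and most of these moved: 5 fell, 3 rose and 1 was not called, with a median log2 fold change of −0.42. Ly6a (−0.82), Pdgfrb (−0.65), Eng (−0.58), Pdgfra (−0.57) and Thy1 (−0.42) fell, and Alcam (0.53), Cd44 (0.50) and Itgb1 (0.094) rose. Itgb1 had the highest level of the list (316 FPKM in knockdown and 296 FPKM in scrambled libraries), and its call was lost under 11 of 18 alternatives. The endothelial markers Pecam1, Cdh5, Kdr, Tek, Vwf and Emcn and the leukocyte genes Ptprc, Itgam and Cd3e were below 0.1 FPKM in all 6 libraries, and the macrophage list summed to 5.85 to 5.92 FPKM in knockdown and 4.53 to 5.56 FPKM in scrambled libraries. The 5 epithelial markers in the table summed to 0.595 to 1.03 FPKM in knockdown and 1.80 to 2.07 FPKM in scrambled libraries, and the part of these marker differences in the results below was not tested.

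Cells enter mitosis when cyclin B activates CDK1. Its substrates condense the chromosomes and build the spindle, the spindle assembly checkpoint holds the cell until every kinetochore is attached, and the anaphase-promoting complex, a ubiquitin ligase, then destroys cyclin B and securin so that sister chromatids part and the cell divides. Transcripts of these genes are scarce in resting and G1 cells and accumulate towards mitosis, so that in a mixed culture their level is widely used as a sign of the share of dividing cells. Much of this timing runs through a promoter element, the cell cycle genes homology region (CHR), which is bound by the MuvB complex. MuvB represses with the pocket proteins p130 and p107 in resting cells, and activates with B-MYB and later FOXM1 in dividing cells. CCAAT boxes, bound by the factor NF-Y, often lie nearby.

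The promoters of the measured genes carry these elements. RefSeq promoter windows of the GRCm38.p6 build, running from 250 bases before to 50 bases after the annotated start, were given for 40 of the 48 genes, and not for Aurkb, Ccna2, Cdc25c, Foxm1, Incenp, Kif20a, Spc24 and Tpx2. A CHR spelling, TTTGAA or TTCGAA on either strand, was present in 32 of the 40 windows (80.0%) and in 19.4% of the 27025 genes with a window. Within 50 bases of the start on either side it was present in 30 of the 40 (75.0%) and in 5.29% of all. Restricted to the 250 bases before the start it was present in only 14 of the 40 (35.0%) and in 17.4% of all, so for most genes with a match it lies only at or past the annotated start. A CCAAT box, CCAAT on either strand, was present in 31 of the 40 windows (77.5%) and in 37.9% of all, and both elements stood together in 28 windows and in 7.70% of all. Neither motif contains the other, although matches can overlap at their ends. A match describes the letters and does not show that a factor is bound.

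**Figure D1:**
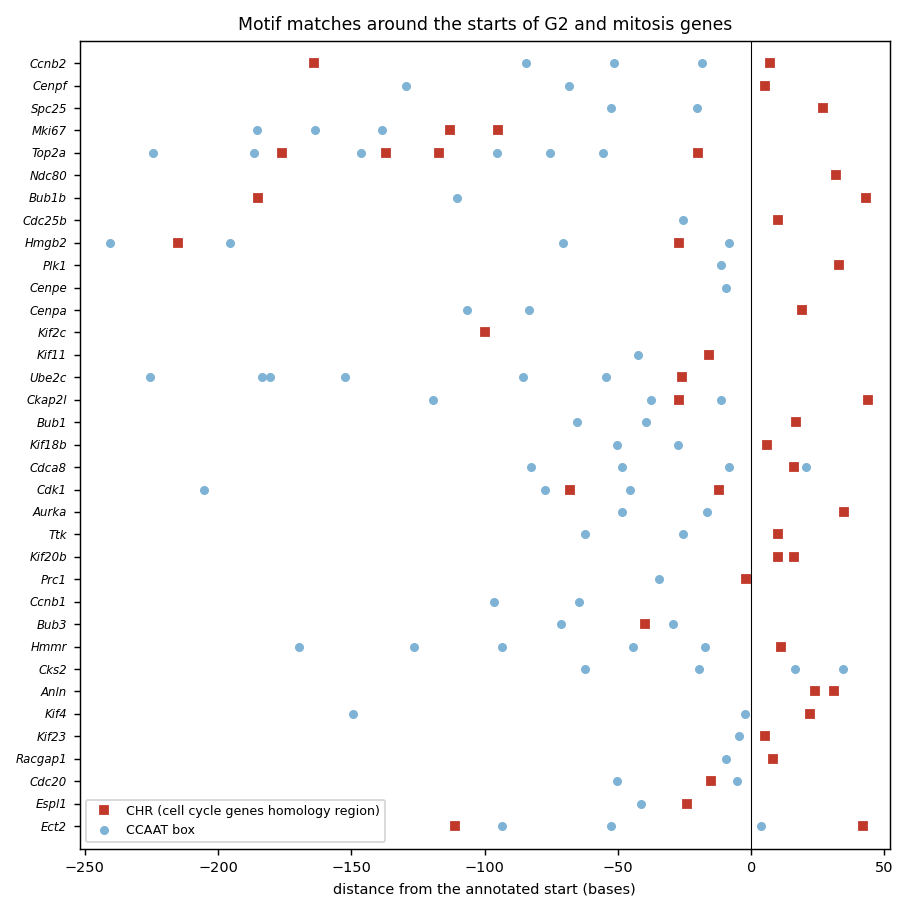
Motif matches in the promoter windows of the G2 and mitosis genes that hold at least 1 match, with the distance from the annotated start in bases on the x axis and genes ordered from the lowest to the highest log2 fold change down the y axis. Squares are CHR matches, which lie within 50 bases of the start in 30 of the 40 genes with a window, and circles are CCAAT boxes, mostly upstream of them.

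The 250 bases before the start are shown for the 4 genes of smallest p that hold a CHR there and for the 2 of smallest p that do not, because these are the members whose levels differed most clearly between the groups. They lie at chr9:70421555-70421804 (Ccnb2, minus strand), chr11:99024190-99024439 (Top2a, minus strand), chr7:135716380-135716629 (Mki67, minus strand), chr3:27153879-27154128 (Ect2, minus strand), chr2:119618048-119618297 (Nusap1, plus strand) and chr1:189688087-189688336 (Cenpf, minus strand) of GRCm38.p6. Each is written 5′ to 3′ on the gene's strand, and capitals mark CHR and CCAAT matches.
Ccnb2: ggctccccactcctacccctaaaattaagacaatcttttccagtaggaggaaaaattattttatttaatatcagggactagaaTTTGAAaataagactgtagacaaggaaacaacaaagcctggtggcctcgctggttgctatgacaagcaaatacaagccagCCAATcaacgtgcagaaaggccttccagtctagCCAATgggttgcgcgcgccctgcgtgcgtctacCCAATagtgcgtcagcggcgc
Top2a: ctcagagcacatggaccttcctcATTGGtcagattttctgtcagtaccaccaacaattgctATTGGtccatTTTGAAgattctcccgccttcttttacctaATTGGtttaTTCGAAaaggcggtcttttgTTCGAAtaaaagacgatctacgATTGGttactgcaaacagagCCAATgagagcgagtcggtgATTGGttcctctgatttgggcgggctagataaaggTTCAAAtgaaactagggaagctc
Mki67: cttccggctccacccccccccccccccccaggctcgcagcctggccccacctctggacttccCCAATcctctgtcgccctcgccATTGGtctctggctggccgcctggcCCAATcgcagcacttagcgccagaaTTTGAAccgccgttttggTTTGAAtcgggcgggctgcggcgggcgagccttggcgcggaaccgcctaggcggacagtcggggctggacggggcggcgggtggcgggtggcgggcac
Ect2: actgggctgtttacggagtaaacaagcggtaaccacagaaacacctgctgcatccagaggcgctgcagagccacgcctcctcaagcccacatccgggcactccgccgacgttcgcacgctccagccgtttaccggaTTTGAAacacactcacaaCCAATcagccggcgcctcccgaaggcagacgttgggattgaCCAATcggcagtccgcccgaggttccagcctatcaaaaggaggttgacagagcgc
Nusap1: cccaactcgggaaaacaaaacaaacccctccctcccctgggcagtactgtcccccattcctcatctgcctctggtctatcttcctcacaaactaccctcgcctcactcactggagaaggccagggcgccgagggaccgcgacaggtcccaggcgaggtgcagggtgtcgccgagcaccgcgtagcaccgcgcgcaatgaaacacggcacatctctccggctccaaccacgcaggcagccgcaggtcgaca
Cenpf: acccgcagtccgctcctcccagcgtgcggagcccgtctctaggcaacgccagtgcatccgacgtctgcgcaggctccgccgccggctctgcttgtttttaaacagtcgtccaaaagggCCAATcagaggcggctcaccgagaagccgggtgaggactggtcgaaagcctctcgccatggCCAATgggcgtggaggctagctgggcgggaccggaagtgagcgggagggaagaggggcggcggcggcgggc
Top2a held 4 CHR and 6 CCAAT matches before its start, Mki67 held 2 and 3, Ccnb2 held 1 and 3, and Ect2 held 1 and 2. Cenpf held 2 CCAAT boxes before its start, and its CHR lies just past it. Nusap1 held neither in its window. Genes that fell and genes that rose both carried the elements: a CHR was present in 5 of 7 windows of genes that rose, in 7 of 9 of genes that fell and in 20 of 24 of genes without a call.

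As a group the G2 and mitosis genes kept about the same level in knockdown as in scrambled cells, with small changes in both directions among single genes. Of the 48 genes, 9 rose and 11 fell at an adjusted p under 0.05 (limma on log2(FPKM + 0.5), Benjamini-Hochberg over 10311 tested genes), and 28 did not pass. The share called, 41.7%, stands beside 51.0% of all tested genes (19.8% higher and 31.1% lower) and 53.0% of the genes with a mean of at least 5 FPKM, a class that 47 of the 48 belong to. The median log2 fold change was −0.0007, against −0.048 over all tested genes, and the median size of change was 0.079 against 0.15. The largest change, that of Ccnb2, was 0.32 in size, and 19.3% of all tested genes changed by at least that much. No member changed 2-fold, as 128 of all tested genes did. The summed level of the 48 genes was 2554 to 2657 FPKM in knockdown and 2589 to 2645 FPKM in scrambled libraries, so the groups overlapped.

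All 48 genes passed the filter on low values in every library, with between 254 and 29331 fragments behind a value, so none was tested only because 1 group was high. The median gene averaged 43.8 FPKM over the 6 libraries, against 10.7 FPKM for the median tested gene. Ube2c was highest at 222 FPKM and Pttg1 lowest at 3.29 FPKM. In bulk RNA, fewer cells in G2 and mitosis and less of a transcript in each such cell cannot be told apart. The groups did not overlap for 25 of the 48 genes, a smaller share than the 61.1% of all tested genes.

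**Figure D2:**
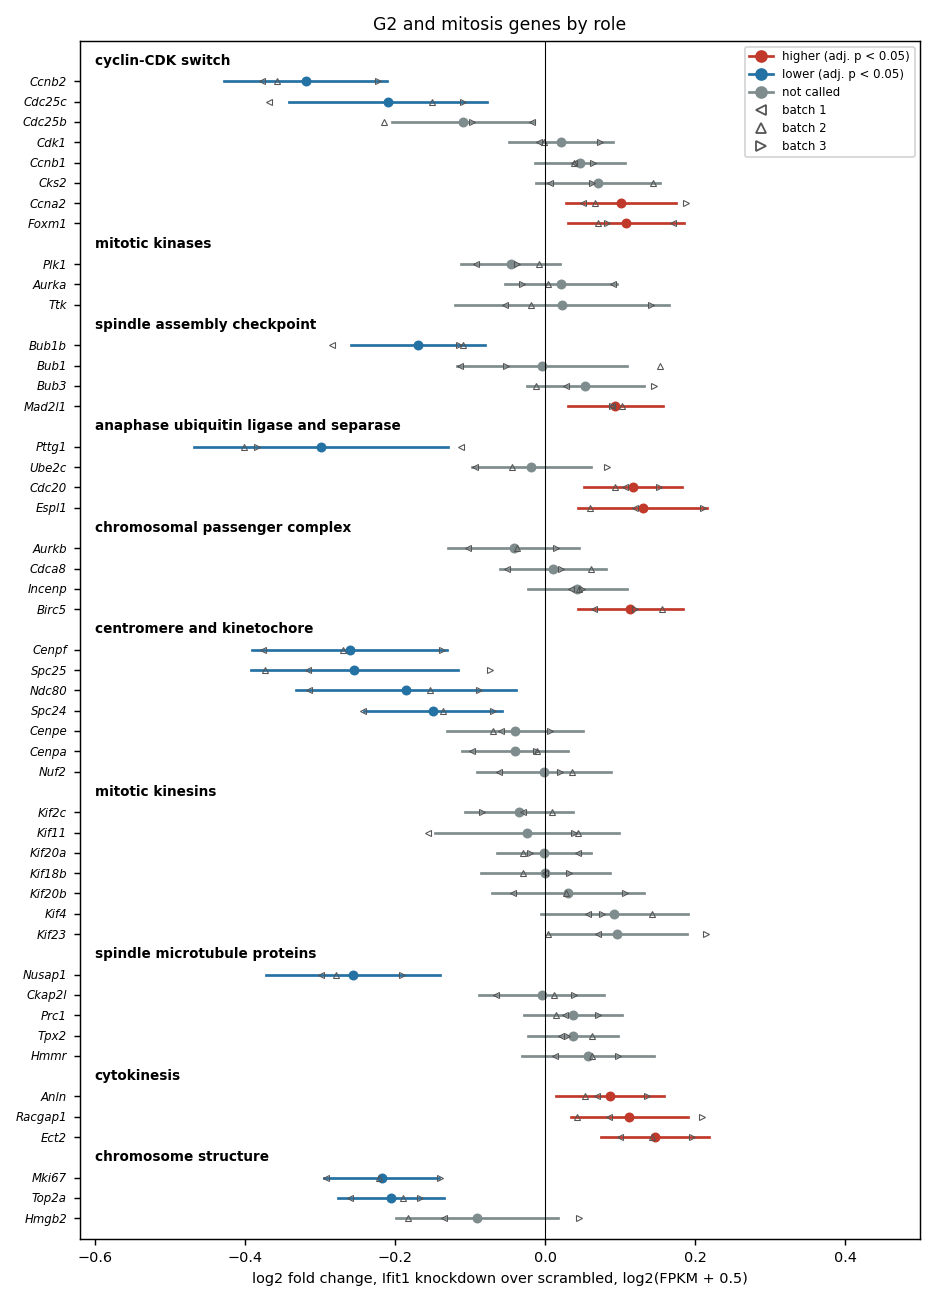
Log2 fold change of each of the 48 genes, Ifit1 knockdown over scrambled, on the log2(FPKM + 0.5) scale. Filled circles with bars are the estimate and its 95% interval from limma over 3 libraries a group, coloured by call, and open triangles are the difference within each batch. The 4 kinetochore genes that fell and the 3 cytokinesis genes that rose stand on opposite sides of 0, and the mitotic kinases and kinesins lie around it.

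The B-type cyclins parted. Ccnb2, cyclin B2, stood at 57.5, 58.9 and 65.7 FPKM in knockdown libraries 1, 2 and 3, against 74.8, 75.7 and 76.8 FPKM in scrambled libraries 1, 2 and 3. Every knockdown library was below every scrambled one, and the log2 fold change was −0.32 ± 0.048 (SE, limma adjusted p = 0.000788), the largest among the 48. Ccnb1, cyclin B1, the main partner of CDK1 at mitotic entry, stood at 113, 117 and 116 FPKM in knockdown and 110, 113 and 111 FPKM in scrambled libraries, and the groups overlapped (0.047 ± 0.027, adjusted p = 0.172). The ratio of Ccnb2 to Ccnb1 within a library, which does not depend on how libraries are scaled, was 0.507, 0.506 and 0.566 in knockdown and 0.678, 0.667 and 0.691 in scrambled libraries. This pair was chosen after its values were seen. Its log2 difference was −0.37, with p = 0.1 in an exact two-sided permutation test, the smallest p that 3 libraries against 3 can give.

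The rest of the CDK1 switch moved little. Cdk1 stood at 49.9, 49.5 and 51.9 FPKM in knockdown and 50.2, 49.5 and 49.4 FPKM in scrambled libraries, with a 95% interval of −0.049 to 0.091 for the log2 fold change. Ccna2, cyclin A2 of S and G2 phase, rose to 122, 121 and 127 FPKM in knockdown libraries, against 118, 115 and 112 FPKM in scrambled libraries (0.10 ± 0.032, limma adjusted p = 0.0269). Foxm1, the transcription factor of the G2 programme, rose to 42.9, 41.5 and 40.4 FPKM, against 38.1, 39.5 and 38.2 FPKM in scrambled libraries (0.11 ± 0.034, adjusted p = 0.0264). Both separated the groups by a narrow margin. The call of Ccna2 was lost under 9 of 18 alternatives and that of Foxm1 under 7, rescaling to TPM and quantile normalization among both. Cdc25c, a phosphatase that activates CDK1, fell to 12.1, 13.7 and 14.3 FPKM in knockdown libraries, against 15.8, 15.3 and 15.5 FPKM in scrambled libraries (−0.21 ± 0.058, adjusted p = 0.0157). Its relative Cdc25b averaged 23.8 ± 0.595 FPKM in knockdown and 25.7 ± 1.17 FPKM in scrambled libraries (SD, n = 3 each) and did not pass (−0.11, limma adjusted p = 0.0536). Cks2, a small subunit of CDK complexes, averaged 100.4 and 95.7 FPKM and did not pass either (0.071, adjusted p = 0.132).

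Kinetochore genes gave the largest count of falls of the 10 roles. Their share was not the largest, as 2 of 3 chromosome structure genes fell. Of 7 centromere and kinetochore genes 4 fell, 0 rose and 3 did not pass, with a median log2 fold change of −0.15. Of all tested genes 31.1% fell, and of 31 further kinetochore genes, given below, 6 fell and 2 rose. Cenpf, a large outer kinetochore protein made in G2, stood at 9.78, 11.0 and 11.2 FPKM in knockdown libraries, against 12.8, 13.3 and 12.3 FPKM in scrambled libraries, with no overlap (−0.26 ± 0.057, limma adjusted p = 0.00522). Spc25 stood at 15.1, 14.2 and 16.9 FPKM in knockdown libraries, against 18.9, 18.5 and 17.8 FPKM in scrambled libraries, also with no overlap (−0.25 ± 0.061, adjusted p = 0.00799). SPC25 is 1 of the 4 subunits of the NDC80 complex, which grips the microtubule end, together with SPC24, NDC80 and NUF2. Spc24 fell (34.1 ± 1.76 FPKM in knockdown and 37.8 ± 0.400 FPKM in scrambled libraries, −0.15), as did Ndc80 (25.5 ± 2.42 and 28.9 ± 1.26 FPKM, −0.19). Ndc80 overlapped between the groups, and its call was lost under 7 of 18 alternatives.

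Nuf2, the remaining subunit, did not pass, with 26.8 ± 0.440 FPKM in knockdown and 26.9 ± 1.18 FPKM in scrambled libraries and an interval of −0.091 to 0.087. The ratio of Ndc80 to Nuf2, chosen after the values were seen, was 0.870, 0.909 and 1.07 in knockdown and 1.04, 1.04 and 1.15 in scrambled libraries. The ratios of the groups overlapped, with a log2 difference of −0.19 (exact two-sided permutation p = 0.3). Cenpa, the centromeric histone H3, stood at −0.040 and Cenpe, a kinetochore motor, at −0.040 on the log2 scale, neither past the threshold. Cenpa was called lower after rescaling to TPM (−0.085) and with the trends in level and length (−0.094) or also in GC content (−0.091) removed.

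Mki67 and Top2a, the proliferation marker Ki-67 that coats mitotic chromosomes and the topoisomerase that untangles sister DNA, both fell. Mki67 stood at 45.4, 46.4 and 47.8 FPKM in knockdown libraries, against 55.7, 54.2 and 52.7 FPKM in scrambled libraries (−0.22 ± 0.034, limma adjusted p = 0.000929). Top2a stood at 114, 119 and 123 FPKM in knockdown libraries, against 137, 136 and 138 FPKM in scrambled libraries (−0.21 ± 0.031, adjusted p = 0.000831). For both genes the groups were far apart beside the spread within them. Hmgb2, a chromatin protein that also bends DNA in mitotic chromosomes, did not pass (137 ± 10.1 FPKM in knockdown and 146 ± 1.91 FPKM in scrambled libraries, −0.091, adjusted p = 0.14). Knockdown library 3 held 149 FPKM of Hmgb2, above every scrambled library, while the other 2 knockdown libraries held 132 and 130.2 FPKM. Without knockdown library 3 the gene passed, as it did under TPM, quantile normalization and both removals of a trend.

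**Figure D3:**
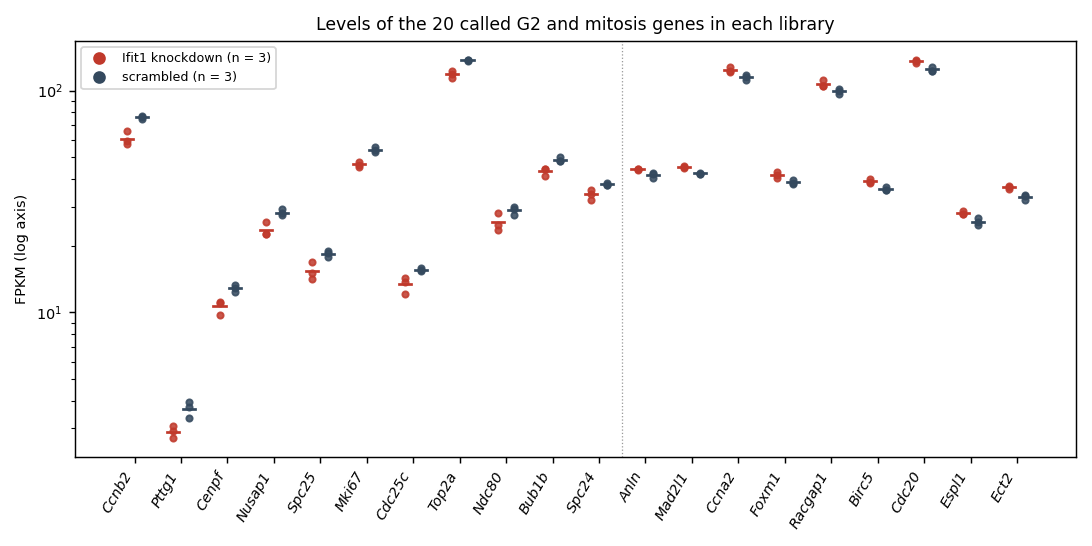
FPKM in each library, on a log axis, of the 20 genes that passed the threshold, ordered from the largest fall to the largest rise, with the fallen genes left of the dotted line. Points are libraries (n = 3 a group), bars are means, and each gene has its knockdown libraries left of its scrambled libraries. The groups overlapped for Ndc80 only.

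The spindle assembly checkpoint showed 1 fall, 1 rise and 2 genes without a call. Bub1b, the checkpoint protein BUBR1, stood at 41.1, 44.4 and 44.4 FPKM in knockdown libraries, against 50.2, 47.9 and 48.1 FPKM in scrambled libraries (−0.17 ± 0.039, limma adjusted p = 0.00663). Mad2l1, which encodes MAD2, the inhibitor of CDC20, rose to 45.5, 45.4 and 44.8 FPKM, against 42.7, 42.3 and 42.1 FPKM in scrambled libraries (0.0935 ± 0.028, adjusted p = 0.0206). BUBR1 and MAD2 sit together in the mitotic checkpoint complex. The ratio of Bub1b to Mad2l1, again chosen after the values were seen, was 0.905, 0.977 and 0.990 in knockdown and 1.18, 1.13 and 1.14 in scrambled libraries, with no overlap and a log2 difference of −0.27 (exact two-sided permutation p = 0.1, the smallest possible). Bub1 (23.9 ± 1.40 FPKM in knockdown and 23.9 ± 0.978 FPKM in scrambled libraries) and Bub3 (62.1 ± 1.69 and 59.8 ± 1.81 FPKM) did not pass. The call of Mad2l1 was lost under 9 of 18 alternatives, and that of Bub1b under none.

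Among the 4 genes of anaphase, 2 rose, 1 fell and 1 did not pass (75.0% called, beside 51.0% of all tested genes). Cdc20, the activator of the anaphase-promoting complex, rose to 133, 137 and 137 FPKM in knockdown libraries, against 123, 128 and 123 FPKM in scrambled libraries (0.12 ± 0.029, limma adjusted p = 0.00866). Espl1, separase, the protease that cleaves cohesin, rose to 27.7, 27.8 and 28.7 FPKM, against 25.5, 26.7 and 24.7 FPKM in scrambled libraries (0.13 ± 0.038, adjusted p = 0.0192). Its inhibitor securin, encoded by Pttg1, fell to 3.06, 2.73 and 2.92 FPKM, against 3.35, 3.76 and 3.96 FPKM in scrambled libraries (−0.30 ± 0.074, adjusted p = 0.00949). Pttg1 had the fewest fragments of the 48 genes, 254 in the library with the fewest, and its call was lost under quantile normalization and with the trends in level and length, or level, length and GC content, removed. Ube2c, the ubiquitin-conjugating enzyme of the complex, averaged 220 ± 5.86 FPKM in knockdown and 223 ± 8.79 FPKM in scrambled libraries (−0.018, limma adjusted p = 0.686). It was called lower under quantile normalization (−0.11, adjusted p = 0.0239, limma) and with the trend in level and length removed (−0.11, adjusted p = 0.0201), and stood at 0.048 under median centring.

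The 3 genes listed under cytokinesis rose by small amounts, beside 19.8% of all tested genes called higher. Ect2, the exchange factor that switches on RhoA at the cell equator, stood at 36.1, 36.9 and 37.1 FPKM in knockdown libraries, against 33.7, 33.4 and 32.3 FPKM in scrambled libraries (0.15 ± 0.032, limma adjusted p = 0.00497), the largest rise among the 48. Racgap1, a subunit of centralspindlin that recruits ECT2, stood at 105, 105 and 111 FPKM in knockdown libraries, against 99.1, 102 and 96.2 FPKM in scrambled libraries (0.11 ± 0.034, adjusted p = 0.0236). Anln, the ring scaffold anillin, stood at 44.0, 44.1 and 44.2 FPKM in knockdown libraries, against 41.9, 42.5 and 40.2 FPKM in scrambled libraries (0.086 ± 0.032, adjusted p = 0.0484). No knockdown library overlapped a scrambled one for these 3 genes. Kif23, the partner of RACGAP1, and Prc1 of the midzone were listed under other roles and did not pass. The call of Ect2 held under all 18 alternatives, while that of Racgap1 was lost under 9 and that of Anln under 12, including the replicate block, in which batch is a term.

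Of the 4 subunits of the chromosomal passenger complex, which corrects wrong attachments and then guides cytokinesis, 1 rose. Birc5, survivin, rose to 38.4, 39.8 and 38.7 FPKM in knockdown libraries, against 36.7, 35.7 and 35.6 FPKM in scrambled libraries (0.11 ± 0.031, limma adjusted p = 0.0144). Incenp, the scaffold of the complex, stood at 56.3, 57.9 and 58.3 FPKM in knockdown and 54.9, 56.1 and 56.3 FPKM in scrambled libraries and did not pass (0.043, adjusted p = 0.245). Its kinase Aurkb (44.3 ± 1.72 FPKM in knockdown and 45.6 ± 1.35 FPKM in scrambled libraries) and the borealin gene Cdca8 (65.9 ± 1.78 and 65.4 ± 1.21 FPKM) did not pass either.

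None of the 3 other mitotic kinases and 7 mitotic kinesins was called, although Plk1, Kif4 and Kif23 were under some alternatives. Of all tested genes 51.0% were called. Plk1, which drives mitotic entry and spindle assembly, stood at 72.9, 73.7 and 72.9 FPKM in knockdown and 77.7, 74.1 and 74.8 FPKM in scrambled libraries, with no overlap but no call (−0.045, limma adjusted p = 0.218). It was called lower after rescaling to TPM (−0.091), under quantile normalization (−0.094) and with the trend in level and length removed (−0.090), and stood at 0.021 under median centring. Aurka, the spindle pole kinase, stood at 50.3, 48.3 and 47.2 FPKM in knockdown and 47.2, 48.1 and 48.3 FPKM in scrambled libraries, and Ttk, the checkpoint kinase MPS1, at 14.4 ± 1.30 and 14.1 ± 0.482 FPKM. Among the motors, Kif23, the partner of RACGAP1 in centralspindlin, stood at 45.2, 44.2 and 48.4 FPKM in knockdown and 43.0, 44.1 and 41.7 FPKM in scrambled libraries (0.096, adjusted p = 0.0781). Kif4, a chromokinesin, stood at 18.6, 19.5 and 17.9 FPKM in knockdown and 17.9, 17.6 and 16.9 FPKM in scrambled libraries (0.092, adjusted p = 0.103). Kif4 was called higher under 4 of 18 alternatives and Kif23 under 2, median centring among both. Kif11, which pushes the spindle poles apart, Kif20a, Kif20b, Kif2c, which takes microtubules apart, and Kif18b lay between −0.035 and 0.030 on the log2 scale.

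Spindle microtubule proteins gave 1 call among 5. Nusap1, which bundles microtubules near chromosomes, fell to 22.7, 22.5 and 25.5 FPKM in knockdown libraries, against 28.0, 27.5 and 29.1 FPKM in scrambled libraries (−0.26 ± 0.051, limma adjusted p = 0.00328). Hmmr, a spindle-associated protein, stood at 30.2, 29.9 and 29.4 FPKM in knockdown and 30.0, 28.6 and 27.4 FPKM in scrambled libraries, which overlapped (0.058, adjusted p = 0.244). Tpx2 (62.6 ± 0.569 FPKM in knockdown and 61.0 ± 0.404 FPKM in scrambled libraries), the activator of Aurora A, Prc1 (59.0 ± 0.158 and 57.5 ± 1.29 FPKM), which crosslinks the midzone, and Ckap2l (28.8 ± 0.333 and 28.9 ± 1.10 FPKM) did not pass. Over the 28 genes without a call, the 95% intervals of the log2 fold change reached no lower than −0.20 and no higher than 0.19.

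Knockdown library 3 lay nearest to the scrambled libraries for most genes that fell. Over the 11 fallen genes the median log2 difference from the scrambled mean was −0.28, −0.22 and −0.14 in knockdown libraries 1, 2 and 3, and library 3 was the nearest in 9 of 11. Over the 9 risen genes the median difference was 0.093, 0.10 and 0.13 in libraries 1, 2 and 3, so library 3 was not nearer to the scrambled level there. Within batches 1, 2 and 3 the median of all 48 genes was −0.036, 0.0035 and 0.035. The order was the same over all tested genes (−0.0595, −0.0488 and −0.0326) and over the other mitosis genes given below (−0.0757, −0.0366 and 0.0029). It is therefore not particular to the 48. All 11 fallen and all 9 risen genes had 1 direction in the 3 batches; the same libraries gave the calls, so this is no separate support. Fallen, risen and uncalled genes had a median transcript GC content of 44.1%, 46.4% and 47.7% and a median gene length of 2.65, 3.45 and 3.29 kb, and the part of these properties in the calls was tried only by the removal of trends given next.

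The count of genes that rose depended on the scaling between libraries. After rescaling to TPM 1 gene rose and 15 fell, under median centring 19 rose and 8 fell, under quantile normalization 3 rose and 13 fell, and with trends in GC content, level and length removed 5 rose and 12 fell. The median log2 fold change of the 48 genes was −0.046 under TPM and 0.065 under median centring, and that of all tested genes −0.094 and 0.018. The 7 fallen genes Ccnb2, Cenpf, Nusap1, Spc25, Mki67, Top2a and Bub1b and 1 risen gene, Ect2, passed under all 18 alternatives. None of the 20 called genes changed sign under any of the 18. Of the 28 genes without a call, 15 passed under at least 1 alternative. The falls of Cdc25c, Pttg1, Spc24 and Ndc80 and the other 8 rises were each lost under at least 2.

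**Figure D4:**
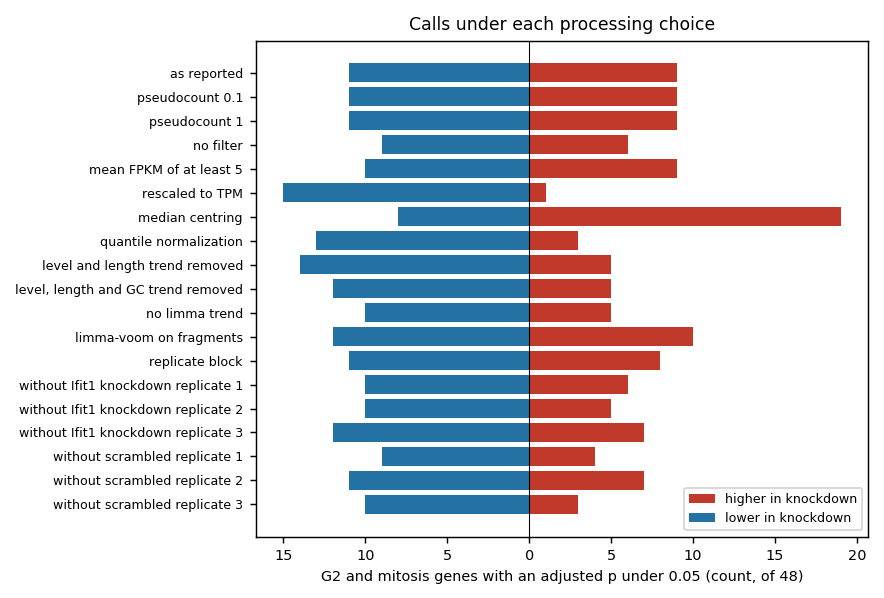
Number of the 48 genes with an adjusted p under 0.05, higher (right) and lower (left) in knockdown, as reported and under each of the 18 alternatives. The count of falls lies between 8 and 15, and the count of rises between 1 after rescaling to TPM and 19 under median centring.

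Other genes of mitosis and its control, 121 in 6 lists that hold none of the 48, gave a similar share of calls. They include 11 genes of MuvB, MYB and pocket proteins, which regulate transcription and are given in the next paragraph. Of 120 tested, 21 rose and 27 fell (40.0% called, beside 51.0% of all tested genes). The median log2 fold change was −0.049 and the median size of change 0.099. Of 8 condensin genes 3 fell and 0 rose, among them Ncaph (−0.15), Ncapd2 (−0.14) and Ncapd3 (−0.14), and of 12 genes of cohesin and its regulators 2 fell and 0 rose, Pds5b (−0.15) and Rad21 (−0.11), with Stag2 at −0.095 (limma adjusted p = 0.0606). These condensin and cohesin calls were each lost under median centring, and those of Rad21 and Ncapd3 under 7 and 9 of 18 alternatives in all. Of 31 further kinetochore genes 2 rose and 6 fell. Hjurp, the chaperone of CENP-A, fell to 35.1 ± 0.0504 FPKM in knockdown, against 41.4 ± 0.564 FPKM in scrambled libraries, Zwint rose (0.15), and Cenpm fell (−0.26). The call of Cenpm was lost under quantile normalization (−0.14) and with trends in level and length (−0.14) or also in GC content (−0.11, limma adjusted p = 0.178) removed. Of 17 genes of the anaphase-promoting complex 3 rose and 6 fell, with Ube2s, its chain-extending enzyme, at 0.21, Anapc15 at 0.23 and Anapc2 at −0.20. Of 41 tested further kinases, kinesins and spindle genes 12 rose and 7 fell, and the 3 of smallest p were Pimreg (−0.32), Psrc1 (−0.65) and Trip13 (0.28), which remodels MAD2.

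Genes of the complexes that act on the CHR element moved in both directions. Mybl2, which encodes the activator B-MYB, rose to 32.3, 29.6 and 28.1 FPKM in knockdown libraries, against 22.0, 22.7 and 21.6 FPKM in scrambled libraries (0.43 ± 0.051, limma adjusted p = 0.000247). Rbl2, which encodes the repressor p130, fell to 5.99, 6.25 and 5.86 FPKM, against 8.24, 7.86 and 8.01 FPKM in scrambled libraries (−0.39 ± 0.047, adjusted p = 0.00028). Both changes exceeded that of every one of the 48 G2 and mitosis genes in size, and both passed under all 18 alternatives. Tfdp1, the partner of E2F factors, rose (0.20). Of the 11 genes of this list 4 rose and 3 fell (63.6% called, beside 51.0% of all tested genes).

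Genes of the G1/S transition and DNA replication gave 8 rises and 6 falls among 48 tested, with a median of −0.012. The share called was 29.2%, beside 51.0% of all tested genes. Rrm2, a subunit of ribonucleotide reductase, rose to 138 ± 5.50 FPKM in knockdown, against 91.6 ± 3.19 FPKM in scrambled libraries (0.59, limma adjusted p = 2.15e-05), and Cdc25a (0.28) and the origin recognition gene Orc6 (0.20) rose too. All 7 CDK inhibitor genes fell, by between 0.16 and 0.98 on the log2 scale, beside 31.1% of all tested genes called lower. Cdkn1a, which encodes p21, averaged 11.3 ± 0.477 FPKM in knockdown and 21.1 ± 0.936 FPKM in scrambled libraries, and Cdkn2b, which encodes p15, 38.4 ± 4.41 and 76.4 ± 6.72 FPKM (SD, n = 3 each). Cdkn2a, the highest of the 7 in level, averaged 167 ± 13.4 FPKM in knockdown and 248 ± 11.8 FPKM in scrambled libraries (−0.57, limma adjusted p = 0.000106). The 2 smallest falls were the least firm: the call of Cdkn2d (−0.16) was lost under 12 of 18 alternatives and that of Cdkn2c (−0.17) under 5, median centring and no filter among both. These inhibitor genes moved further than any of the 48 G2 and mitosis genes in 5 of 7 cases.

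**Figure D5:**
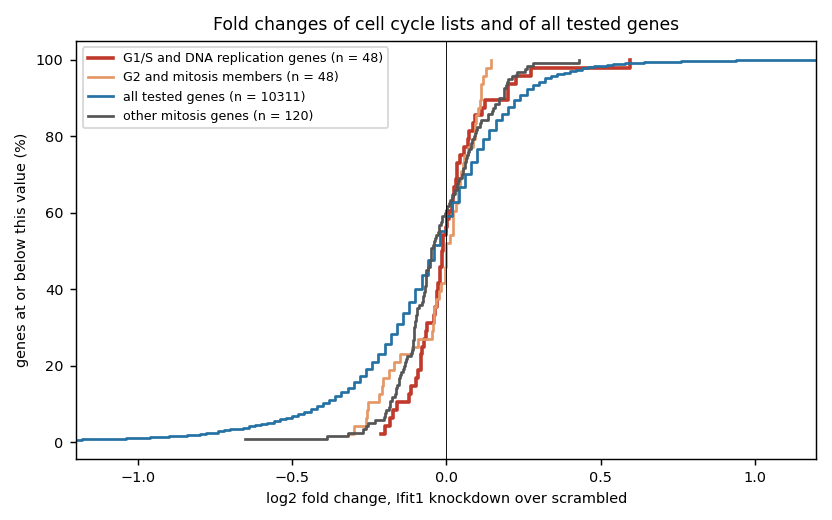
Cumulative share of genes, in percent, at or below each log2 fold change of Ifit1 knockdown over scrambled, for the G2 and mitosis genes, the other mitosis genes, the G1/S and DNA replication genes and all tested genes. The G2 and mitosis genes run from −0.32 to 0.15, and the curve of all tested genes is wider on both sides.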

How the data were processed

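RNA was sequenced from 6 libraries of ADSCs, 3 with a hairpin against Ifit1 and 3 with a scrambled hairpin. Bead-captured mRNA was heat-fragmented before cDNA synthesis, per the labels' protocols. The authors deposited 1 table of FPKM per gene and library. Builds listed in the submitters' processing notes are GRCm38, mm10 and GRCm39, with no role. The sources used here name no aligner, counter, strand setting or annotation. Without a known strand setting, reads of antisense or overlapping genes cannot be told apart. Members and lists were chosen with earlier results of these data known.

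Each FPKM is a whole multiple of what 1 fragment of that gene is worth in that library, which gave the depths; this held for all 19877 genes within 0.002 of a whole number. For the 14114 genes above 0 in all 6 libraries this is a check, and for genes above 0 in few libraries it is not. Genes with at least 1 FPKM in at least 3 of 6 libraries (10311) were tested on log2(FPKM + 0.5) with limma 3.58.1 in R 4.3.3 (trend on the mean level, two-sided), with Benjamini-Hochberg adjustment over them. Fold changes of low genes are understated on this scale. Errors after fold changes are standard errors. The procedure was run on simulated counts in which few genes changed and no shift in scaling between the groups was built in. That run cannot speak to the dependence on scaling. Every member was named; values per library were given for the 2 members of smallest p in each role, for Mki67, Top2a, Ccnb1, Cdk1 and Foxm1 and for every member that rose, and up to 3 genes of smallest p were named from each other list. Because the labels give each replicate number a batch, the numbers pair the libraries. Same-numbered libraries' deviations from their group means correlated at 0.086, 0.012 and 0.19 over the tested genes. Those of differently numbered libraries correlated at between −0.17 and 0.11. Transcript GC content came from GENCODE M21. The 18 alternatives cover pseudocount, filter, scaling, trends, variance model, limma-voom on the recovered fragments, the replicate block and leaving out each library. Removing trends in GC content together with level and length, the ratios of 2 genes and the alternatives for genes of the other lists were added after the data were seen.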

Additional observations from a re-analysis of the deposited data

How the results depend on the processing

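The counts of members held within 1.5 times under both other pseudocounts, no filter, the filter on a mean of 5 FPKM, limma-voom and the replicate block, in which batch is a term (8 rose and 11 fell; Anln lost its call). Members that rose numbered 1 for TPM, 19 for median centring, 3 for quantile normalization, 5 with the trend in level and length removed, 5 with GC content added to it and 5 without the limma trend. Leaving out each library gave 3 to 7 rises, with 3 without scrambled library 3, 4 without scrambled library 1 and 5 without knockdown library 2. The median of the members was −0.0456 under TPM and 0.0652 under median centring. Calls of all tested genes that were higher made 38.9% of the calls as reported, against 27.6% for TPM, 56.7% for median centring, 52.4% for quantile normalization and 53.7% and 53.9% once trends were removed. Fallen genes numbered 2042, against 3209 as reported, with a mean of at least 5 FPKM, where fewer genes were tested.

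Other mitosis genes that fell numbered 50 under TPM, 7 under median centring and 17 with the trend in level and length removed, and those that rose 35 under median centring. Leaving out libraries gave 17 to 30 falls, with 17 without knockdown library 1, knockdown library 2, scrambled library 1 or scrambled library 3. For G1/S genes, 5 rose and 13 fell under TPM, 13 rose under median centring and 10 fell once trends in GC content, level and length were removed. Leaving out libraries gave 5 to 7 rises, with 5 without knockdown library 1 or scrambled library 1.

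Signs turned only among members without a call, of which Plk1 and Ube2c were also called lower under quantile normalization (−0.094 for Plk1 and −0.108 for Ube2c) and with the trend in level and length removed (−0.0898 for Plk1 and −0.1105 for Ube2c). Under quantile normalization the log2 fold change was −0.0076 for Ccnb1, −0.0102 for Aurka, 0.0041 for Bub1 and −0.016 for Cdca8. With the trend in level and length removed it was −0.0111 for Ccnb1, −0.0014 for Cks2, −0.0072 for Aurka, 0.0065 for Bub1, −0.0336 for Cdca8 and 0.0013 for Nuf2. With GC content added it was −0.0279 for Ccnb1, −0.005 for Cdk1, −0.011 for Cks2, −0.0342 for Cdca8 and −0.0173 for Prc1. Under TPM it was −0.0239 for Cdk1, −0.0237 for Aurka, −0.0216 for Ttk, −0.0019 for Incenp, −0.0343 for Cdca8, −0.0139 for Kif20b, −0.0445 for Kif18b, −0.0075 for Tpx2 and −0.0079 for Prc1. Under median centring it was 0.0205 for Plk1, 0.0619 for Bub1, 0.0477 for Ube2c, 0.0243 for Aurkb, 0.0259 for Cenpa, 0.0256 for Cenpe, 0.064 for Nuf2, 0.0418 for Kif11, 0.0643 for Kif20a, 0.0312 for Kif2c and 0.0613 for Ckap2l. Leaving out each library gave −0.0002 to 0.0347 for Cdk1, −0.0041 to 0.0415 for Aurka, −0.0401 to 0.0862 for Ttk, −0.0495 to 0.0302 for Bub1, −0.0107 to 0.0268 for Cdca8, −0.0684 to 0.0422 for Kif11, −0.0138 to 0.0084 for Kif20a, −0.0258 to 0.0156 for Kif18b, −0.0466 to 0.0101 for Ube2c, −0.0263 to 0.0326 for Nuf2, −0.0103 to 0.0513 for Kif20b and −0.0216 to 0.0261 for Ckap2l. The macrophage marker Cd68, also without a call as reported, stood at 0.1676 under quantile normalization, 0.2406 and 0.2797 with the trends removed and 0.0372 under median centring, and at −0.073 to 0.0472 without single libraries. With GC content added to the trends removed (0.2797) Cd68 was called higher (limma adjusted p = 0.0452). Beyond the scaling itself, the cause of these shifts was not tested.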
